A study of Mus musculus with 146 samples.

Results

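Oocytes are known to send and to receive signals of the TGF-beta family. The 10 genes described here are 2 ligands that oocytes secrete (Gdf9 and Bmp15), 4 type I receptors (Bmpr1a, Bmpr1b, Acvr1 and Tgfbr1) and 4 type II receptors (Bmpr2, Acvr2a, Acvr2b and Tgfbr2). They were chosen by name for this role, with earlier results of these data known. All 10 were found among the 52605 gene symbols of each library. Their RNA was measured by Smart-seq2, a full-length method for single cells, in 146 libraries of germ cells. The cells came from ovaries of C57/BL6J mice at age D0.5, when germ cells leave their cysts and are enclosed in primordial follicles, and no cell was treated. They were picked by mouth pipette from digested ovaries of female littermates, and libraries positive for Foxl2, a marker of pregranulosa cells, had been removed by quantitative PCR before sequencing. The labels do not tie single cells to an animal or a plate. The cells are therefore treated as 1 sample, and values are given without tests.

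Ligands of this family act as dimers. A ligand brings together a type II and a type I receptor kinase, the type II receptor activates the type I receptor, and the latter phosphorylates Smad proteins that enter the nucleus. BMPR2 is the known type II receptor for GDF9 and BMP15, which pair it with TGFBR1 and BMPR1B, respectively. BMPR1A, BMPR1B and ACVR1 serve BMP ligands, ACVR2A and ACVR2B bind activins and some BMPs, and TGFBR2 binds TGF-beta itself. GDF9 and BMP15 are known for driving the growth of granulosa cells around the oocyte after follicles have formed.

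Before levels were compared, libraries were compared with each other. In 7 pairs of libraries the log2(TPM + 1) values correlated at r = 0.989 to 0.996 across coding genes, whereas the next most similar pair reached r = 0.770 and the median pair r = 0.517. The median chi-square of a gene between the libraries of these pairs was 0.633 to 1.12, against 110 in the next pair. The paired libraries thus differed by little more than counting noise and were averaged, each pair as 1 cell. All 7 pairs fell in cluster 2. A single cell with Ddx4 below 1 TPM was set aside, since Ddx4 marks germ cells. Clusters 1, 2 and 3, described next, held 19, 87 and 32 of the cells kept, and values over all cells refer to these. Between 1408459 and 26855273 reads per library were assigned to genes, with a median of 9509197 over the cells kept. Of the 5 germ cell markers, Ddx4, Dazl and Sycp3 were at 1 TPM or more in every cell, and all 5 summed to at least 543.5 TPM in each. Of the 10 pregranulosa markers, Foxl2 reached 1 TPM in 4 cells and Cdkn1b, which oocytes also express, in 61. Hemoglobin RNA was found in most cells (Hba-a1 at 1 TPM or more in 100), and the blood and endothelial markers summed to 324500 TPM in 1 cell of cluster 1.

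The cells were grouped into 3 clusters and set in order by 19 germ cell genes that the study describes or shows as features of its clustering. Gdf9, another of them, was left out. Meiotic genes such as Sycp2 and Stag3 lead at the start of this order, and oocyte genes such as Zp2 and Zp3, which encode coat proteins of the egg, at its end. Levels are given in TPM, the transcripts of a gene among 1000000 transcripts of the cell, a scale that divides reads by the transcript length assigned to the gene in that cell. Comparisons between genes therefore depend on these lengths, and the order by reads alone is given further on. A log2 ratio is that of mean TPM between clusters after adding 1 TPM to both means, and a ratio of at least 1.5-fold (0.58 on the log2 scale) is counted as a difference.

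The upstream sequence of the ligand and receptor that came on late is shown first, because both hold the letters TAATTA or TAATTG, which the oocyte homeobox factor NOBOX is known to bind. The sequences are those of RefSeq on GRCm38.p6. Of the members, 9 had an entry there and 1, Gdf9, did not. The 250 bases before the start are printed 5′ to 3′ on the strand of the gene, with these letters in capitals, for Bmp15 (chrX:6320725-6320974, minus strand) and for 1 of 3 starts of Bmpr1b (chr3:141982265-141982514, minus strand).
Bmp15: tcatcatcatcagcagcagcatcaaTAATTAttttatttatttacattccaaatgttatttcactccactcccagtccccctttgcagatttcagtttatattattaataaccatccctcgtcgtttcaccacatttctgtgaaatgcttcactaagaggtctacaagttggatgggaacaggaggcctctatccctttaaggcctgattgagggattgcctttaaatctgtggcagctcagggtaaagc
Bmpr1b: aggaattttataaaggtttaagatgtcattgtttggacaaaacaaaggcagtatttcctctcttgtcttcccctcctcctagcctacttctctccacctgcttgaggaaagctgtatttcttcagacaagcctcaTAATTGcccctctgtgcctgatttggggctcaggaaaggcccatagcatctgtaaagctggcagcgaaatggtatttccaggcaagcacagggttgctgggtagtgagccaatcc
The match lies at position -225 of Bmp15 and at -115 of Bmpr1b, counted back from the start. Both strands were searched. TAATTA reads the same on both, and TAATTG on the other strand reads CAATTA. The letters occurred in 2 of the 12 windows of the members and in 11.3% of all 32851 windows of this length, and in none of the windows of the other 7 receptors. The letters CANNTG, the E-box that FIGLA and other helix-loop-helix factors bind, occurred in 4 of the 12 windows of the members, those of Bmp15, 2 starts of Bmpr1b and 1 of Tgfbr1, against 66.2% of all windows. A match of letters is a description and no measure of binding. The 2 windows were picked for holding the match, and its part in the late onset was not tested. Which start of Bmpr1b these cells use was not tested either. Across all cells, Spearman's rho with Nobox RNA, one of the 19 genes behind the order, was 0.163 for Bmp15 and -0.0107 for Bmpr1b, and with Figla RNA -0.00817 and -0.251.

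Over all cells, the median level followed the order Bmpr1a (17.8 TPM), Tgfbr1 (10.98 TPM), Bmpr2 (5.41 TPM), Acvr2b (4.03 TPM), Acvr2a (3.42 TPM) and Gdf9 (0.0823 TPM), with Acvr1, Bmpr1b, Bmp15 and Tgfbr2 at a median of 0. Neighbours in this order overlapped widely. Bmpr1a exceeded Tgfbr1 in 83 cells and was lower in 54, Bmpr2 exceeded Acvr2b in 71 and was lower in 66, and Acvr2b exceeded Acvr2a in 70 and was lower in 55. Tgfbr1 exceeded Bmpr2 in 94 cells and was lower in 44. By mean, Gdf9 came first with 29.9 TPM, ahead of Bmpr1a with 25.99 TPM, because its RNA was very high in a minority of cells.

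**Figure D1:**
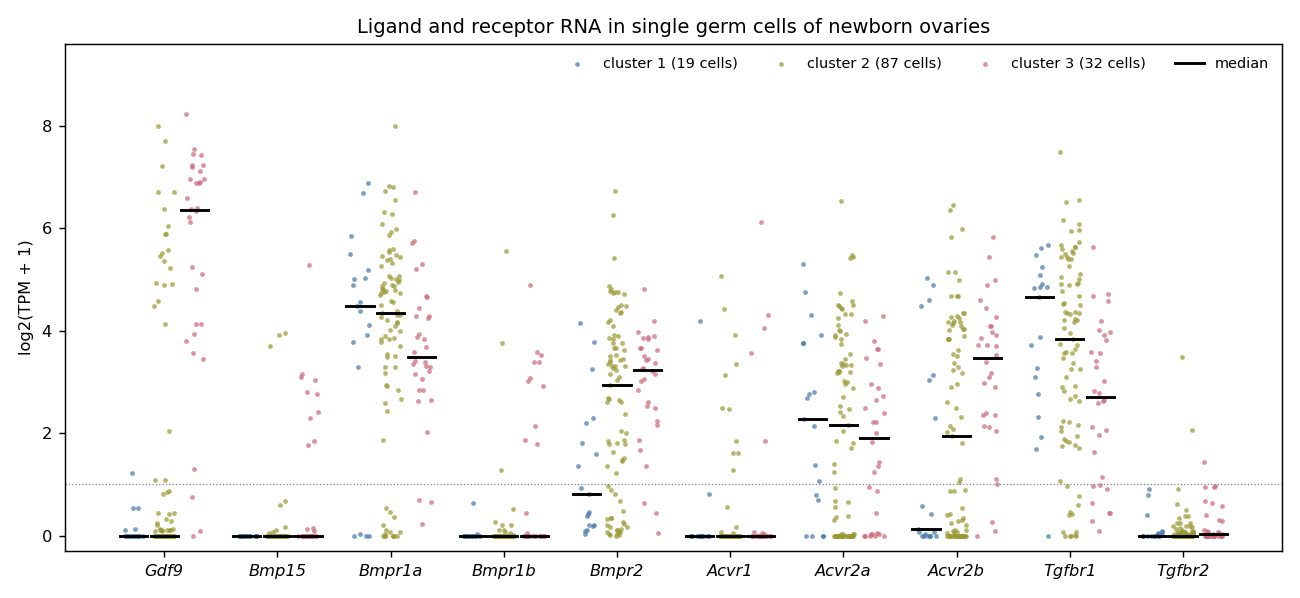
Level of each of the 10 genes in each cell, as log2(TPM + 1), with 1 point per cell coloured by cluster (19, 87 and 32 cells), black bars for medians and a dotted line at 1 TPM. Gdf9 is near 0 in nearly all cells of cluster 1 and high in cluster 3, Bmp15 and Bmpr1b are on in a minority of cells of cluster 3, and Bmpr1a and Tgfbr1 are present in most cells of every cluster.

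Gdf9 was close to an on or off gene in these cells. It lies on GRCm38 at chr11:53431023-53437904, plus strand. In cluster 1 its level ran from 0 to 1.33 TPM with a median of 0, in cluster 2 from 0 to 254.9 TPM with a median of 0, and in cluster 3 from 0 to 298.2 TPM with a median of 81.2 TPM. The ranges of clusters 2 and 3 overlap almost fully, but the share of cells with at least 1 TPM differed: 1 of 19 cells (5.26%, exact Clopper-Pearson 95% interval 0.133 to 26.03%), 23 of 87 cells (26.4%, 17.6 to 37.0%) and 29 of 32 cells (90.6%, 74.98 to 98.02%). These intervals cover counting error only. After drawing 1000000 reads from every cell, the shares with a Gdf9 read were 10.5%, 35.6% and 93.8%.

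The mean level of Gdf9 was 0.127 TPM in cluster 1, 16.7 TPM in cluster 2 and 83.6 TPM in cluster 3. This gave log2 ratios of 3.97 for cluster 2 over 1 and 2.26 for cluster 3 over 2. The first stayed between 1.31 and 6.21 and the second between 1.72 and 3.94 under every alternative run. Among the 53 cells with at least 1 TPM the median was 58.5 TPM, with quartiles of 22.9 and 118.4 TPM. These cells had a median of 751 estimated Gdf9 reads, and the lowest had 10.

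Along the order, cut into 5 bins of 27 or 28 cells, mean Gdf9 was 1.15, 0.152, 14.5, 40.6 and 96 TPM. The number of cells at 1 TPM or more was 2, 1, 8, 15 and 27. Thus every cell of the last bin, all of them in cluster 3, contained Gdf9 RNA. The first bin owes its mean to cell 45, which had 29.2 TPM at place 23 of the order and is the mean of a library pair. Spearman's rho of Gdf9 with the order was 0.682 across all cells, and 0.692 with Zp3 and 0.683 with Zp2, both among the genes that made the order. In the 53 cells with Gdf9 the median of Zp3 was 261 TPM, against 0 in the other 85.

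Other measures changed along the same order. The Spearman correlation with the order was 0.226 for reads assigned to genes, 0.354 for genes with a read, 0.279 for the percentage of mitochondrial reads, -0.335 for spike-in TPM, 0.536 for the summed pregranulosa markers and -0.515 for the summed germ cell markers. Pregranulosa markers summed to a median of 0.992 TPM (0.0662 to 66.6) in cluster 1, 1.51 TPM (0 to 82.5) in cluster 2 and 20.3 TPM (0.418 to 51.7) in cluster 3. Of the 10 markers, Cdkn1b reached 1 TPM in 61 cells, Wnt4 in 10, Gata4 in 9 (up to 59.1 TPM), Kitl in 7 (up to 81.1 TPM), Wt1 in 6, Krt19 and Lgr5 in 5 each, Foxl2 in 4, Irx3 in 3 and Wnt6 in 0. Cdkn1b, which oocytes also express, had the highest mean of the 10, 6.295 TPM, followed by Gata4 with 1.28 TPM. The part of these measures in the result was not tested.

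**Figure D2:**
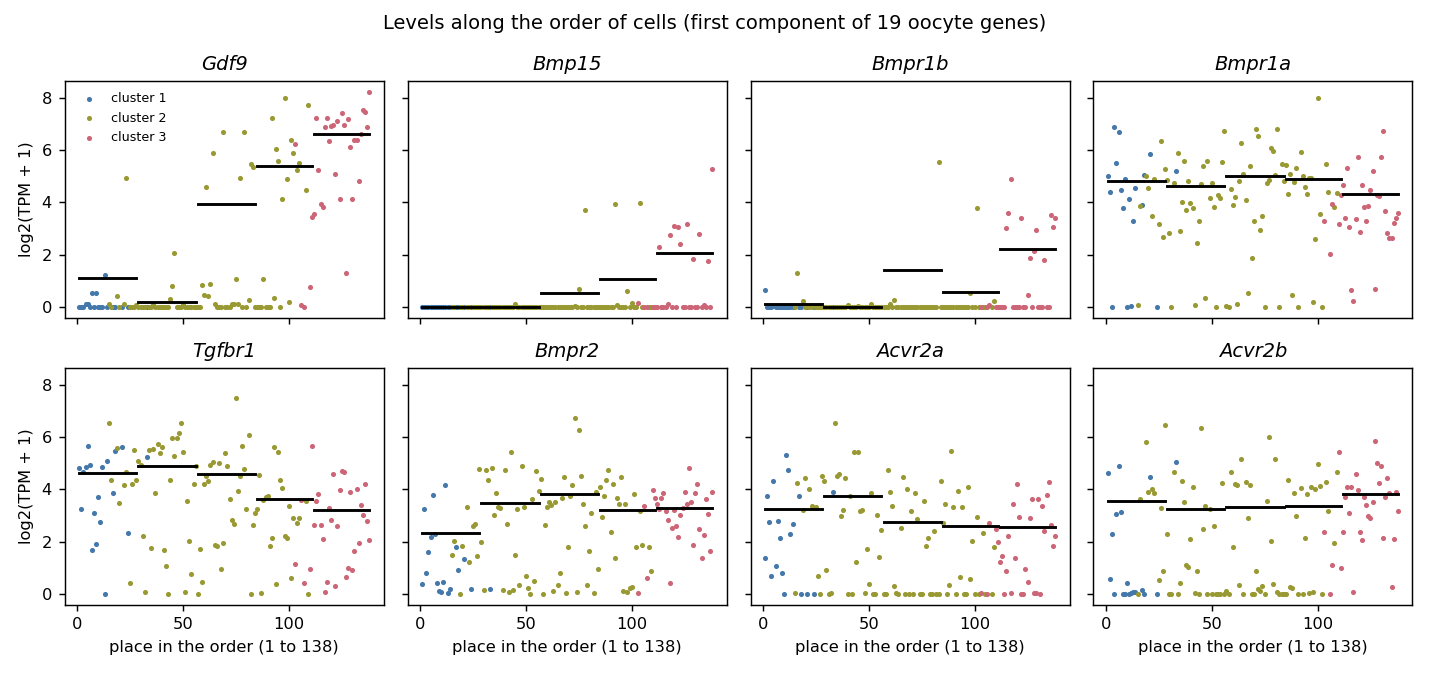
Level of 8 of the genes, as log2(TPM + 1), against the place of each cell in the order set by 19 oocyte genes other than Gdf9. Points are cells coloured by cluster, and black lines are the mean TPM of each of 5 bins on the same scale. Gdf9 climbs from the 3rd bin on, Bmp15 and Bmpr1b appear mainly in the last bin, and Tgfbr1 is lower in the last 2 bins.

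Bmp15, the close relative of Gdf9 on the X chromosome (chrX:6314107-6320721, minus strand), was found in fewer cells. It was at 0 in all 19 cells of cluster 1, which allows a share of up to 15.8% of cells by a floor of 3 counts and of up to 17.65% by the exact interval. In cluster 2 it ran from 0 to 14.5 TPM and reached 1 TPM in 3 of 87 cells (3.45%, 0.717 to 9.75%). In cluster 3 it ran from 0 to 38.02 TPM and reached 1 TPM in 10 of 32 cells (31.2%, 16.1 to 50.0%). After the draw of 1000000 reads the shares were 0, 6.90 and 34.4%. The medians were 0 in each cluster, and the means of clusters 2 and 3 were 0.486 and 2.69 TPM, a log2 ratio of 1.31 that stayed between 0.75 and 2.48 under the alternatives.

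Of the 13 cells with at least 1 TPM of Bmp15, 12 also had Gdf9, and 41 cells had Gdf9 alone. The exception was a cell at place 78, with 12.1 TPM of Bmp15 and no Gdf9 read. Of the 13 cells, 10 lay in cluster 3, where 29 of 32 cells had Gdf9 at this limit. Gdf9 ran from 0 to 298.2 TPM in the 13 cells, with a median of 124.2 TPM, against a median of 0.0721 TPM in the other 125. The highest level of both ligands was in the same cell, the last in the order, with 298.2 TPM of Gdf9 and 38.02 TPM of Bmp15. The Spearman correlation between both ligands was 0.456 across all cells, which share depth and order.

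Among the type I receptors, Bmpr1a and Tgfbr1 were common and Bmpr1b and Acvr1 rare. Bmpr1a, a receptor for BMP ligands (chr14:34410734-34503341, minus strand), reached 1 TPM in 84.1% of cells ( exact 95% interval 76.9 to 89.7%). Its median was 21.3 TPM (0 to 116.9) in cluster 1, 19.4 TPM (0 to 255.5) in cluster 2 and 10.3 TPM (0.167 to 104.2) in cluster 3. These ranges overlap throughout. The mean was 29.7, 28.2 and 17.8 TPM, so cluster 3 stood below cluster 2 with a log2 ratio of -0.64, which was 0.14 when levels were scaled to spike-in TPM. It also fell short of 1.5-fold without cell 13 (-0.50), with Ward clusters (-0.45), counts without length (-0.48), mean log2 values (-0.28) and the order cut into 3 equal groups (-0.36). Bmpr1a shares exonic positions with Gm17110 on the opposite strand, and reads of both cannot be told apart in libraries that do not mark strand.

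Tgfbr1, the type I receptor of TGF-beta and of GDF9 (chr4:47353222-47414931, plus strand), also reached 1 TPM in 84.1% of cells. Its median was 24.1 TPM (0 to 50.0) in cluster 1, 13.36 TPM (0 to 180) in cluster 2 and 5.57 TPM (0.0595 to 48.96) in cluster 3. The clusters overlap, yet the upper quartile of cluster 3, 13.29 TPM, was just below the median of cluster 2. Means were 21.3, 22.3 and 8.99 TPM, and cluster 3 over 2 gave a log2 ratio of -1.22. Along the order the bin means were 23.6, 28.6, 22.8, 11.4 and 8.34 TPM, with rho = -0.309. Its rho with the percentage of mitochondrial reads was -0.292, whose part in the result was not tested. The share of cells at 1 TPM or more was 94.7, 85.1 and 75%, while after the draw of 1000000 reads 94.7, 94.3 and 93.8% had a Tgfbr1 read. Scaled to spike-in TPM the ratio was 0.09, a scale on which the median over genes past a limit on level was 0.66 in place of -0.18.

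Bmpr1b, the type I receptor paired with BMP15 (chr3:141837136-142169425, minus strand), was the receptor most restricted to cluster 3. It reached 1 TPM in 0 of 19 cells of cluster 1 (exact upper limit 17.65%), in 3 of 87 cells of cluster 2 (3.45%, 0.717 to 9.75%) and in 11 of 32 cells of cluster 3 (34.4%, 18.6 to 53.2%). Levels ran from 0 to 0.557 TPM, from 0 to 45.8 TPM and from 0 to 28.6 TPM, respectively, with medians of 0. Means were 0.0306, 0.701 and 3.10 TPM. Cluster 3 over 2 gave a log2 ratio of 1.27, between 0.78 and 2.00 under the alternatives. Cluster 2 over 1 gave 0.72, but cell 7 alone, with 45.8 TPM, carried it, and without this cell it was 0.19.

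Of the 14 cells with Bmpr1b, 13 had Gdf9 at 1 TPM or more, 5 had Bmp15, and all 14 had Bmpr2. The cell without Gdf9 was cell 88 at place 16, with 1.43 TPM of Bmpr1b. Of the 14 cells, 11 lay in cluster 3, where 29 of 32 cells had Gdf9 at this limit. In the 14 cells Gdf9 had a median of 75.4 TPM, against 0.0711 TPM in all others. The Spearman correlation of Bmpr1b was 0.319 with Gdf9, 0.205 with Bmp15 and 0.255 with the order. It was 0.39 with genes with a read and -0.311 with the summed germ cell markers, whose part in the result was not tested.

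Acvr1, a type I receptor for BMP ligands (chr2:58388644-58567157, minus strand), had a median of 0 and reached 1 TPM in 17 cells (12.3%, 7.34 to 18.99%). It ran from 0 to 17.2 TPM in cluster 1, from 0 to 32.5 TPM in cluster 2 and from 0 to 68.9 TPM in cluster 3, with means of 0.943, 1.17 and 3.66 TPM. The log2 ratio of 1.10 for cluster 3 over 2 was 0.23 without 1 cell, that with 68.9 TPM. Of the 17 cells with Acvr1, 6 had Gdf9 at 1 TPM or more, beside 38.4% of all cells, and rho between the genes was -0.0541. Of the 17 cells, 11 lay in cluster 2 and 5 in cluster 3, and each of these 5 had Gdf9 at this limit.

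Among the type II receptors, Bmpr2 (chr1:59763400-59879014, plus strand) reached 1 TPM in 100 cells (72.5%, 64.2 to 79.7%). Its median was 0.745 TPM (0.0248 to 16.9) in cluster 1, 6.66 TPM (0 to 104.8) in cluster 2 and 8.41 TPM (0.0345 to 27.2) in cluster 3. Cluster 1 stood low, with an upper quartile of 3.05 TPM, below the lower quartile of 4.37 TPM in cluster 3. Means were 2.89, 10.4 and 8.47 TPM, which gave log2 ratios of 1.55 for cluster 2 over 1 and -0.26 for cluster 3 over 2. The second was 0.73 scaled to spike-in TPM, 0.36 with mean log2 values and 0.07 as counts without length. The first was -0.02 between clusters made from 2000 variable genes, whose first cluster held 66 cells. The share with at least 1 TPM was 42.1, 72.4 and 90.6%, but after the draw of 1000000 reads 84.2, 88.5 and 96.9% of cells had a read, so Bmpr2 was present at a low level in most cells of cluster 1 as well.

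Acvr2b, a receptor for activins and some BMPs (chr9:119402118-119434995, plus strand), reached 1 TPM in 83 cells (60.1%, 51.5 to 68.4%). Its median was 0.0981 TPM (0 to 31.9) in cluster 1, 2.84 TPM (0 to 86.2) in cluster 2 and 10.03 TPM (0 to 56.01) in cluster 3. The share of cells at 1 TPM or more was 36.8% (16.3 to 61.6%), 54.02% (43 to 64.8%) and 90.6% (74.98 to 98.02%), and after the draw 42.1, 60.9 and 93.8% had a read. Means differed less, with 6.60, 9.99 and 12.6 TPM, because a few cells of clusters 1 and 2 held high levels. Cluster 3 over 1 gave a log2 ratio of 0.84. It fell short of 1.5-fold with the order cut into 3 equal groups (0.14), Ward clusters (0.40) and clusters from 2000 variable genes (0.39). Cluster 3 over 2 gave 0.31, short of 1.5-fold. This ratio passed 1.5-fold with mean log2 values (1.04), counts without length (0.76), spike-in TPM (0.75) and the order in 3 groups (0.61). Acvr2b also had the lowest rho of the members with spike-in TPM, -0.468, whose part in the result was not tested.

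Acvr2a, the other activin receptor (chr2:48814109-48903269, plus strand), reached 1 TPM in the same number of cells, 83. Its median was 3.87 TPM (0 to 38.4) in cluster 1, 3.46 TPM (0 to 91.3) in cluster 2 and 2.77 TPM (0 to 18.5) in cluster 3, and the clusters overlap throughout. Means were 7.94, 8.30 and 4.49 TPM. The log2 ratio of -0.76 for cluster 3 over 2 was -0.03 when scaled to spike-in TPM and -0.27 when log2(TPM + 1) values were averaged first. It also fell short of 1.5-fold with clusters from 2000 variable genes (-0.45) and with the order cut into 3 equal groups (-0.48). Along the order the bin means were 8.54, 12.5, 5.67, 5.13 and 4.83 TPM. Exons of Acvr2a overlap those of Orc4 on the opposite strand.

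Tgfbr2, the type II receptor of TGF-beta (chr9:116084293-116175360, minus strand), was the lowest of the members by mean. It reached 1 TPM in 3 cells (2.17%, 0.451 to 6.22%), at 10.3, 3.16 and 1.72 TPM and on a median of 7.57 reads, so these values rest on few reads, and its highest values in clusters 1, 2 and 3 were 0.884, 10.3 and 1.72 TPM. Its mean was below 0.3 TPM in each cluster. At lower limits it was more frequent, with 0.1 TPM or more in 21% of cells and a read in 23.2% after the draw of 1000000 reads, or in 21.1%, 20.7% and 31.2% of clusters 1, 2 and 3. All 3 cells at 1 TPM had Tgfbr1 and Gdf9.

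Counted together, 3 of the 10 members were at least 1.5-fold higher in cluster 2 than in cluster 1 (Gdf9, Bmpr2 and Bmpr1b) and 0 were lower. Over all coding genes, with no limit on level, 17% were higher and 16.9% lower. Of the 12463 genes with at least 1 TPM in either cluster 24.3% were higher and 25.5% lower, 49.8% in all, and of the 7 members past this limit 2 were higher. From cluster 2 to cluster 3, 4 members were higher (Gdf9, Bmp15, Bmpr1b and Acvr1) and 3 lower (Bmpr1a, Acvr2a and Tgfbr1). The shares of all genes were 12.4% higher and 19.4% lower, and of the 12273 genes past the limit 18.8% and 29.1%, in all 48%. From cluster 1 to cluster 3, 6 were higher and 3 lower, against 19.2% and 25.7% of all genes and 28% and 38.4%, in all 66.4%, of the 12640 past the limit. Of the members, 9 passed the limit in each of the last comparisons. Several, such as Gdf9 over cluster 1 and Bmp15 and Bmpr1b over clusters 1 and 2, passed it only through the cluster where they are high, so the shares past the limit give no support for the members as a group.

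The split into higher and lower depended on the scale. Scaled to spike-in TPM, 6 members were higher and 0 lower both from cluster 2 to 3 and from cluster 1 to 3. Of the genes past the limit, 53.9% were then higher and 8.9% lower from cluster 2 to 3, and 46.2% and 21.6% from cluster 1 to 3. With mean log2 values the counts of members were 4 and 1 and 5 and 1. The shares of the genes past the limit were then 28.6% and 10.7%, and 29.5% and 26.6%. The median log2 ratio of all 10 members, those under the limit included, was 0.35, 0.17 and 1.05 for cluster 2 over 1, 3 over 2 and 3 over 1. Over the genes past the limit the median was -0.05, -0.18 and -0.23, so the 2 sets are filtered differently. The median of the members was 0.06 for cluster 2 over 1 with clusters from variable genes. For 3 over 2 it was 0.74 scaled to spike-in TPM, beside 0.66 for the genes past the limit. For 3 over 1 it was 0.29 when the order was cut into 3 equal groups. The comparisons share clusters and are not independent of each other.

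**Figure D3:**
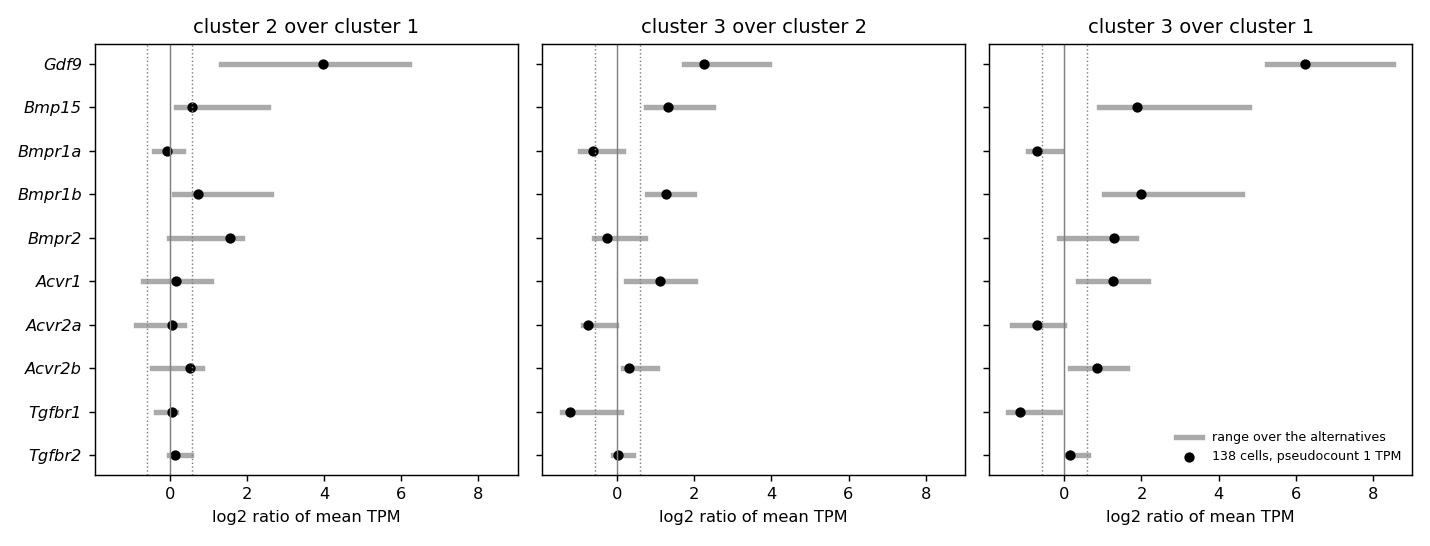
Log2 ratio of mean TPM between clusters for each of the 10 genes. Black points are the values over all cells with 1 TPM added, grey bars the range over the alternatives, the solid line no difference and dotted lines 1.5-fold. Gdf9 lies beyond 1.5-fold in all 3 comparisons over the whole range of alternatives, and the bars of Bmpr1a and Tgfbr1 cross 0 for cluster 3 over 2.

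A signal needs a receptor of each type in the same cell. At 1 TPM or more, 87.7% of cells (81.01 to 92.7%) held at least 1 type I and 1 type II receptor RNA, and cells held between 0 and 6 of the 8 receptors, most often 4 (38 cells). The share was 15 of 19 cells in cluster 1, 75 of 87 in cluster 2 and 31 of 32 in cluster 3. The missing partner was mostly a type II receptor, absent at this limit in 15 cells, whereas a type I receptor was absent in 3. Bmpr1a and Bmpr2 RNA were found together in 87 cells, with shares of 36.8% (16.3 to 61.6%), 62.1% (51.03 to 72.3%) and 81.2% (63.6 to 92.8%) in clusters 1, 2 and 3. Gdf9 stood with RNA of its receptors Bmpr2 and Tgfbr1 in 37 cells, 0 of 19 in cluster 1, 15 of 87 in cluster 2 and 22 of 32 in cluster 3. Bmp15 stood with Bmpr2 and Bmpr1b in 5 cells, all in cluster 3.

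The leading receptor of a cell was compared on the TPM scale first. Bmpr1a was the highest type I receptor RNA in 75 cells, with shares between 52.9 and 57.9% in the clusters. Tgfbr1 was the highest in 42.1% of cluster 1, 41.4% of cluster 2 and 21.9% of cluster 3 (9.28 to 39.97%). Of the type II receptors, Acvr2a was the highest in 9 of 19 cells of cluster 1 (47.4%, 24.4 to 71.1%) and 4 of 32 of cluster 3 (12.5%, 3.51 to 28.99%). Acvr2b was the highest in 5 of 19 (26.3%, 9.15 to 51.2%) and 18 of 32 cells (56.2%, 37.7 to 73.6%), and Bmpr2 in 1 of 19 (5.26%, 0.133 to 26.03%) and 10 of 32 (31.2%, 16.1 to 50.0%). The intervals of clusters 1 and 3 overlap for each of these receptors. In cluster 2, Bmpr2 was the highest in 29 of 87 cells, Acvr2b in 24 and Acvr2a in 21. Ranked by reads, without length, Bmpr2 led in 5 of 19 cells of cluster 1 (26.3%, 9.15 to 51.2%), 51 of 87 of cluster 2 (58.6%) and 25 of 32 of cluster 3 (78.1%, 60.03 to 90.7%). Acvr2a led by reads in 8, 19 and 3 cells and Acvr2b in 2, 5 and 4. The most frequent type II leader was thus Acvr2a in cluster 1 and Bmpr2 in cluster 2 on both scales, and in cluster 3 Acvr2b by TPM and Bmpr2 by reads. For type I, Bmpr1a led by reads in 9, 48 and 18 cells and Tgfbr1 in 10, 36 and 10, so in cluster 1 the leader was Bmpr1a by TPM (11 cells against 8) and Tgfbr1 by reads.

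**Figure D4:**
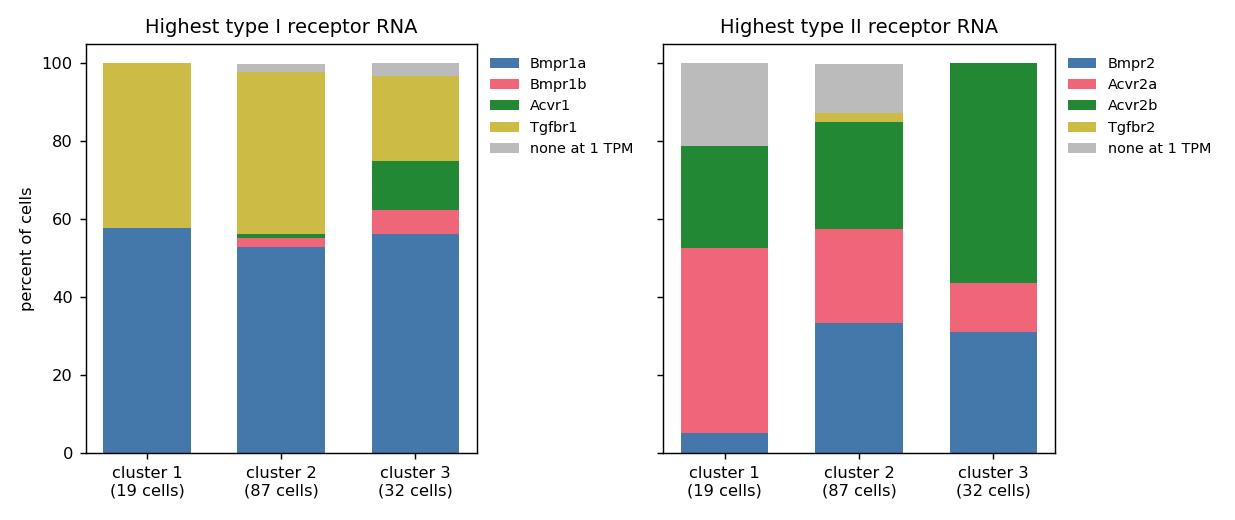
Percent of cells, by TPM, in each cluster (19, 87 and 32 cells) in which a given type I (left) or type II (right) receptor RNA is the highest, with cells where none reaches 1 TPM in grey. On this TPM scale Bmpr1a has a like share in each cluster, while Acvr2a leads most often in cluster 1 and Acvr2b in cluster 3. By reads, Bmpr2 led in 25 of the 32 cells of cluster 3.

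These levels depend on the transcript length that the quantification assigned to a gene in each cell. In cells with at least 20 reads the length of Gdf9 was 1793 bases in 45 of 52 cells and that of Bmp15 3060 bases in 14 of 14. Both equal the coding transcript of GENCODE M21. For most receptors the assigned length was shorter than their coding transcripts there. It ran from 235.5 to 793.8 bases for Acvr2b (coding transcripts of 1729 to 3175 bases) and from 474 to 4714 bases for Bmpr2 (12899 bases). It was at most 2843 bases for Acvr2a (5686 bases), and the median was 1044 bases for Bmpr1b (1910 to 5349 bases) and 1151 bases for Tgfbr1 (1713 to 5756 bases). For Acvr1 it ran from 433 to 706 bases (612 to 3293 bases). A short length raises TPM for the same reads. Counts without length in turn place long transcripts, such as that of Bmpr2 (12899 bases), higher at the same number of transcripts. As counts per 1000000 reads, without length, Bmpr2 came first with a mean of 90.9, followed by Bmpr1a with 79.7, Tgfbr1 with 64.3, Gdf9 with 44.3, Acvr2a with 30.5 and Acvr2b with 15.5, and the remaining 4 were at 3.18 or below.

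The genes most like each common receptor across all cells were looked for among 6681 coding genes with a mean of at least 10 TPM and 1 TPM or more in at least 50% of cells. Tgfbr1 was most like Hspa9, a mitochondrial chaperone (rho = 0.522), Prkar1a, a regulatory subunit of protein kinase A (0.489), and Vcp, an ATPase that extracts proteins from complexes (0.481). Bmpr1a was most like Hbp1 (0.430), Mfsd3 (0.380) and Mum1 (0.379), and Bmpr2 most like Smchd1 (0.436), Ptma (0.364) and Tmtc4 (0.360). Acvr2a was most like Otud4 (0.434), Cacul1 (0.406) and Rbm38 (0.404), and Acvr2b most like Ddx59 (0.384), Hnrnpa0 (0.369) and Arf3 (0.363). The median rho of the 6681 genes lay between 0.00817 for Bmpr2 and 0.0852 for Acvr2a. Between members, the highest rho of 2 receptors was 0.291, for Bmpr1a and Tgfbr1, followed by 0.269 for Acvr2a and Acvr2b.

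Around these members, 66 other genes of the pathway were measured, of which 15 reached 1 TPM in at least 50% of cells. Of 41 with at least 1 TPM in cluster 1 or 2, 14 were higher and 7 lower in cluster 2, with a median log2 ratio of 0.22, where 24.3% of all genes past this limit were higher and 25.5% lower. Of 39 between clusters 2 and 3, 6 were higher and 12 lower, with a median of -0.39, beside 18.8% and 29.1% of all genes. Of 39 between clusters 1 and 3, 10 were higher and 11 lower, beside 28% and 38.4%. None of the 19 other ligands, among them BMPs, activin subunits and TGF-betas, reached 1 TPM in 50% of cells, nor did any of the 4 other receptors. Gdf9 and Bmp15 did not either. The most frequent of the 19, Tgfb3, reached 1 TPM in 39 cells, beside 53 for Gdf9 and 13 for Bmp15. Furin, a protease that cleaves precursors of this ligand family, averaged 5.58, 27.7 and 8.46 TPM in clusters 1, 2 and 3, and Pcsk7, a protease of the same family, 15.6, 19.8 and 11.7 TPM.

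At the cell surface, the co-receptor Rgmb averaged 8.92, 13.7 and 16.9 TPM and Neo1, which binds proteins of the RGM family, 13.8, 16.2 and 12.1 TPM, and the secreted BMP modulator Twsg1 14, 23.4 and 16.1 TPM. Inside the cell, Fkbp1a, which binds type I receptors, averaged 391.5 TPM over all cells and Usp15, a deubiquitinase, 112.2 TPM. The ubiquitin ligase Smurf1, which targets receptors and Smads, averaged 4.39, 11.5 and 14.7 TPM in the 3 clusters, Smurf2, its relative, 20.4, 18.2 and 13.4 TPM, and Zfyve16, an endosomal adaptor, 9.13, 13.7 and 6.63 TPM. Of the Smads, Smad2, Smad4 and Smad5 had means over 10 TPM (58.6, 32.6 and 16.9 TPM). The Id genes, known as targets of BMP signalling in many cells, did not share a direction: the median in the 53 cells with Gdf9 and in the other 85 was 1027 and 2750 TPM for Id1, 568.5 and 310.2 TPM for Id2, and 718 and 963 TPM for Id3.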

How the data were processed

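The 146 libraries each held RNA of a single germ cell and ERCC spike-ins. The authors quantified reads with Salmon, with correction for sequence bias, against mm10 plus spike-ins, and deposited TPM and estimated counts per gene symbol without further normalization. The annotation release is not given in the sources used here. The authors' transcript lengths are cell-specific. GENCODE M21 named 28006 of the symbols and RefSeq others (35 symbols, 268 synonyms), 24296 were left unmatched, and 19779 were coding genes. Members and lists were chosen with earlier results of these data known.

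Libraries with r of at least 0.95 across coding genes were averaged as 1 cell, and cells with Ddx4 below 1 TPM left out. Clusters came from Seurat 5.3.0 (R 4.3.3) on 19 genes with 10 components, 20 neighbours and resolution 0.2, and the order from the first component (35.9% of the variance). The study's own clusters were not used, so a difference from the study may come from rebuilt clusters. Doublets were not called, since cells were picked singly. Means, shares with exact 95% intervals, log2 ratios with a pseudocount of 1 TPM and Spearman's rho were obtained without tests (SciPy 1.17.1, NumPy 2.4.6, pandas 2.3.3, Python 3.11.15), since cells are not replicates. The calculation of ratios was tested on simulated data. Named are the members, the 3 genes most like each member found in at least 50% of cells, and listed pathway genes with a mean of at least 10 TPM, besides markers, the 5 other ligands past 1.5-fold in the closing section, Nobox, Figla, Lhx8, Sohlh1, Sycp2, Stag3, Zp2, Zp3 and the Id genes, which were added after values were seen. Alternatives were a pseudocount of 0.1, mean log2 values, counts scaled to 1000000 reads, spike-in scaling, other clusters and cell sets, other detection limits, and each cell left out.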

Additional observations from a re-analysis of the deposited data

Results flagged for a closer look

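The single cell set aside for a Ddx4 level below 1 TPM entered only the alternative with all libraries, and 2 of the 10 members were nevertheless above the limit of 3 reads there. In this cell, with 1408459 reads assigned to genes, Tgfbr1 was at 90.3 TPM (215 estimated reads) and Bmpr2 at 20.9 TPM (154 reads), while the other 8 members were at 0. Over the cells with Ddx4, the highest level was 180 TPM for Tgfbr1 and 104.8 TPM for Bmpr2, so both values lie within the range of those cells.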

How the results depend on the processing

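Of 30 log2 ratios, 19 were at least 1.5-fold, and under 13 alternatives each these kept their direction in 243 of 247 cases and direction with 1.5-fold in 212. The exceptions in direction were Bmpr1a and Tgfbr1 for cluster 3 over 2 scaled to spike-in TPM (0.14 and 0.093), and Bmpr2 between clusters made from 2000 variable genes (-0.018 for cluster 2 over 1 and -0.128 for cluster 3 over 1). The count of members past 1.5-fold from cluster 1 to 2 was 3 and became 5 with a pseudocount of 0.1 TPM, with clusters from 2000 variable genes (3 higher, 2 lower), with the order cut into 3 equal groups (4 higher, 1 lower) and without the 14 cells marked by blood or stroma genes, the last chosen after the data were seen. For clusters 2 to 3 (7) and 1 to 3 (9) the total stayed within 1.5 times of these under every alternative, while its split moved as described in the report, the counting of each paired library as a cell included, also chosen after the data were seen. Leaving out each cell in turn gave counts of 2 to 4, 6 to 7 and 8 to 9. Besides the cells named above, the Bmpr1a ratio of cluster 3 over 1 was -0.71, and -0.46 without 1 cell of cluster 1, -0.24 as counts without length, -0.27 scaled to spike-in TPM and -0.08 with the order in 3 groups, that of Acvr2a -0.70, and -0.40 without cell 59 and -0.01 scaled to spike-in TPM, and that of Acvr1 for cluster 2 over 1 was 0.16, and 1.06 without cell 98. The causes were not tested. The number of cells limits the statements on Bmp15 and Bmpr1b in cluster 1, where 0 of 19 cells at 1 TPM allow a share of up to 17.65%. With the cell below the Ddx4 limit included, the ratios of cluster 2 over 1 were 1.28 for Bmpr2 and -0.09 for Tgfbr1, against 1.58 and 0.12 with the same libraries without it. No paired analysis was possible because all cells are 1 sample.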

Other observations

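Of the 19 other ligands, 8 averaged at least 1 TPM in cluster 2 or 3, and 5 of these differed by 1.5-fold or more between them, beside 48% of all genes past the same limit. Tgfb2 averaged 0.0238, 0.335 and 8.07 TPM in clusters 1, 2 and 3, and Inhba, a subunit of activin, 4.51, 0.132 and 2.89 TPM, so both were higher in cluster 3 than in cluster 2. Tgfb3 averaged 0.0167, 5.96 and 3.21 TPM, Gdf3 1.26, 3.27 and 0.908 TPM, and Inha, the alpha subunit of inhibin, 2.67, 3.23 and 0 TPM, so these were lower in cluster 3. Tgfb2, Inhba, Gdf3 and Inha passed the limit only through the cluster where they are high. Each of the 5 reached 1 TPM in a minority of cells, between 11 for Inhba and 39 for Tgfb3. Between the cells with and without Gdf9, the median levels of 4 oocyte transcription factors were 228 and 224 TPM for Nobox, 1312 and 1353 TPM for Figla, 304 and 281 TPM for Sohlh1, and 391.3 and 532.2 TPM for Lhx8.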
